A study of Mus musculus with 4 samples.

Results

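Genes of lipid-handling, debris-clearing phagocytes were examined in cochlear RNA taken after outer hair cells (OHCs) had been depleted with diphtheria toxin (DT). The set was Lgals3, Apoc2, Apoc1, Apoe, Gpnmb, Spp1, Lpl, Trem2, Cd36 and Fabp5. It was chosen by name, and its members are all non-control probes whose gene name on the array is one of these. The set held 10 of the 30028 genes named on the array and 11 of its 39429 probes, Lpl having 2 probes and every other member 1. Each of the 11 probes was well above background on every array, so every member entered every comparison. Rises of Lgals3 and Apoc2 were already known when the set was chosen, and the question was whether the other 8 members moved with them. Earlier results of these data were also known when the other members and the gene lists below were chosen. Counts over them are therefore not independent evidence.

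When a cell dies in a tissue, macrophages and related cells engulf it and have to deal with its membrane lipids. They take up lipid and lipoprotein, digest them in lysosomes, store part as droplets and export the rest on apolipoproteins, and cells engaged in this share a programme in which Trem2, Apoe, Lpl, Gpnmb, Spp1, Cd36 and Lgals3 are known members. The cochlea has resident macrophages and receives further ones after hair cell loss, but several members are also made elsewhere: Apoe in glia, Spp1 in bone and inner ear epithelia, Gpnmb in melanocytes, Lpl and Cd36 in adipocytes and capillary endothelium, and Lgals3 and Fabp5 in keratinised epithelia.

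The 4 groups were the wild-type and the transgenic mice, each untreated (WT DT-, OHC-TRECK DT-) or given DT (WT DT+, OHC-TRECK DT+). All were of the B6J background, C57BL/6J in the study's methods, and 5 weeks old, and the toxin was given at 50 μg/kg body weight 7 days before the cochleae were dissected. In OHC-TRECK mice, which came from a single transgenic line, a prestin (Slc26a5) promoter drives the human DT receptor, and wild-type mice lack that receptor. Each group was 1 pool of cochlear RNA from 4 females and 4 males on 1 array, with the 4 arrays on 1 slide. With a single array per group, nothing could be tested between groups, and a gene is said to have risen or fallen when 2 arrays differed by 2-fold or more.

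Levels are background-subtracted intensities divided by the 75th percentile of the array, so that 1 stands for that percentile, and log2 values are on the same scale. Between 62.2% and 70.6% of the probes of an array were well above background, no spot was saturated, and repeated spots of the same probe had a median SD of 0.061 to 0.071 on the log2 scale. Of 7 OHC markers, 4 (Ocm, Strc, Chrna9 and Chrna10) fell in OHC-TRECK DT+ against each of the other arrays, with a median log2 ratio for the list of -2.37 against OHC-TRECK DT-. In bulk RNA, more cells of a type and more RNA per cell cannot be told apart.

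In OHC-TRECK DT+, Lgals3 and Apoc2 rose about as much as each other and by over 4-fold against every other array. Cd36, Trem2 and Gpnmb rose against some of the other arrays, Apoc1 stopped just short of 2-fold, Spp1 and the brighter Lpl probe were less than 1.5-fold higher, and Apoe and Fabp5 lay within or near the range of the other arrays. No member fell.

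**Figure D1:**
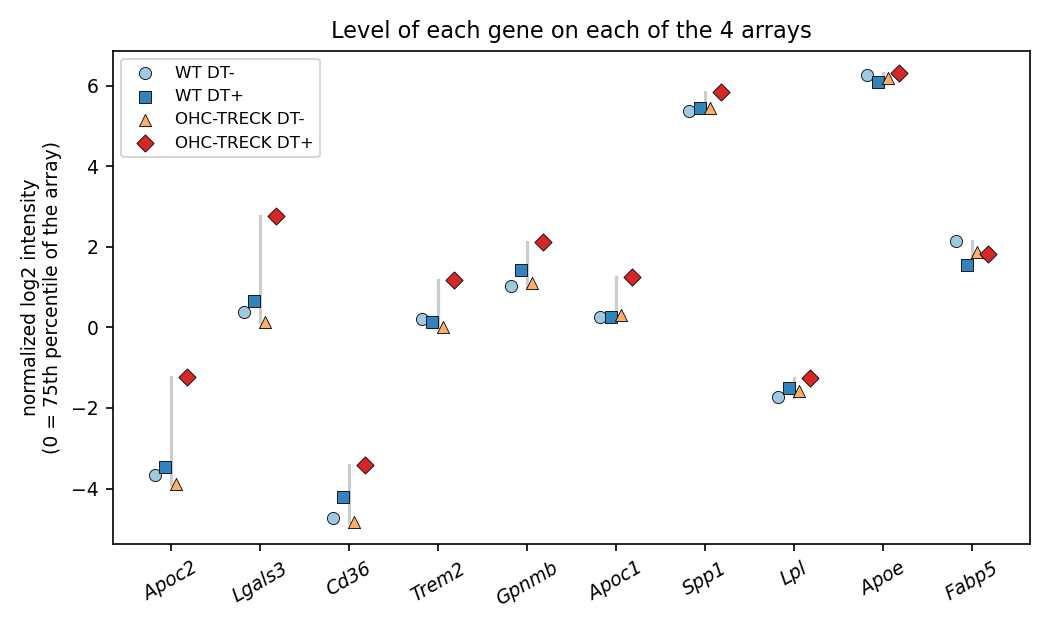
Normalized log2 intensity (vertical axis, 0 at the 75th percentile of the array) of the 10 genes on each of the 4 arrays, 1 symbol per array, with a grey line from the lowest to the highest. Only symbols of the same gene can be compared; OHC-TRECK DT+ (red) is the highest of the 4 for 9 genes, all but Fabp5, and stands farthest from the rest for Apoc2 and Lgals3.

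Galectin-3, the product of Lgals3, is a lectin that binds galactosides on cell surfaces and on damaged endosomes and lysosomes. Its probe, at chr14:48005414-48005473 in mm9, had a level of 1.30 in WT DT-, 1.59 in WT DT+, 1.10 in OHC-TRECK DT- and 6.81 in OHC-TRECK DT+. The 3 control arrays thus spanned 1.44-fold and the OHC-TRECK DT+ array stood alone, 6.18-fold above OHC-TRECK DT-, 4.29-fold above WT DT+ and 5.25-fold above WT DT-.

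Apoc2 encodes apolipoprotein C-II, the cofactor that lipoprotein lipase needs. Its probe, at chr7:20257027-20257086, was dimmer on the array and had a level of 0.0786 in WT DT-, 0.0900 in WT DT+, 0.0679 in OHC-TRECK DT- and 0.426 in OHC-TRECK DT+. It was 6.27-fold higher in OHC-TRECK DT+ than in OHC-TRECK DT-, 4.73-fold higher than in WT DT+ and 5.42-fold higher than in WT DT-, against a span of 1.33-fold among the control arrays. Ordered by their log2 ratio of OHC-TRECK DT+ to OHC-TRECK DT-, the 18248 genes well above background on all 4 arrays had Apoc2 in place 4 and Lgals3 in place 7.

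These genes also had the same profile over the 4 arrays. With each gene centred on its own mean, their log2 levels differed by a root mean square of 0.05, closer than Lgals3 was to any of the 18238 genes outside the set. The nearest of those were, for Lgals3, Ddx43 (0.06), Vmn2r121 (0.18), Lgr6 (0.21), Sirpb1a (0.24) and Timp1 (0.25), and, for Apoc2, Ddx43 (0.09), Vmn2r121 (0.16), Lgr6 (0.20), Cdsn (0.24) and Timp1 (0.24). The study could not detect Ddx43 by qRT-PCR. The first 4 of either list were weak probes, below a log2 level of -1.5 on every array, whereas Timp1, which encodes an inhibitor of metalloproteinases, went from between -0.89 and -0.65 on the control arrays to 1.21. None of the other 8 members was that near to Lgals3: Cd36 came closest at 0.53, then Trem2 at 0.60, and Fabp5 was farthest at 1.10. These distances rest on 4 arrays, of which 1 stands apart, and describe the profiles only.

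Among the receptors, Trem2 encodes the lipid-sensing receptor that signals through Tyrobp. Its level was 1.16 in WT DT-, 1.10 in WT DT+, 1.01 in OHC-TRECK DT- and 2.25 in OHC-TRECK DT+ (probe at chr17:48491537-48491596). The control arrays lay within 1.15-fold of each other, and OHC-TRECK DT+ was 2.23-fold above OHC-TRECK DT-, 2.04-fold above WT DT+ and 1.93-fold above WT DT-. The last of these falls short of 2-fold, which keeps Trem2 from having risen against all other arrays; it passes with median scaling, at 2.02-fold, while the rise over WT DT+ is lost with the normexp background correction, at 1.9998-fold.

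Cd36, the scavenger receptor for oxidised lipoproteins and long-chain fatty acids, had a level of 0.0378 in WT DT-, 0.0544 in WT DT+, 0.0353 in OHC-TRECK DT- and 0.0938 in OHC-TRECK DT+ (probe at chr5:17288600-17288659). It was 2.66-fold higher in OHC-TRECK DT+ than in OHC-TRECK DT- and 2.48-fold higher than in WT DT-, but 1.72-fold higher than in WT DT+. Cd36 varied more among the control arrays than any other member, by 1.54-fold, with WT DT+ the highest of them. The signal was weak, and with the normexp background correction both rises were lost, at 1.97-fold and 1.81-fold.

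Gpnmb encodes a transmembrane glycoprotein of melanosomes and of phagocyte lysosomes. Its level was 2.05 in WT DT-, 2.70 in WT DT+, 2.15 in OHC-TRECK DT- and 4.38 in OHC-TRECK DT+ (probe at chr6:49006386-49006445). OHC-TRECK DT+ was 2.04-fold above OHC-TRECK DT- and 2.14-fold above WT DT-, but 1.62-fold above WT DT+, the highest of the control arrays. Melanocyte markers, which could share its signal, had a summed level of 67.9 to 73.4 on the control arrays and 79.5 in OHC-TRECK DT+. Of 7, 0 rose against OHC-TRECK DT- or WT DT+ and 1 against WT DT-, while 1 fell against each wild-type array. Tyr was 1.99-fold, 1.71-fold and 2.12-fold higher than in OHC-TRECK DT-, WT DT+ and WT DT-, and Trpm1 was 1.65-fold, 2.49-fold and 2.22-fold lower. The part of melanocytes in the Gpnmb value was not tested.

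The other apolipoproteins of the set differed from Apoc2. Apoc1, whose protein modulates lipoprotein uptake and lipid-modifying enzymes, had a level of 1.19 in WT DT-, 1.19 in WT DT+, 1.25 in OHC-TRECK DT- and 2.38 in OHC-TRECK DT+. It was 1.91-fold above OHC-TRECK DT-, 1.999-fold above WT DT+ and 1.997-fold above WT DT-, so that it failed the 2-fold threshold in all 3 comparisons by little, while its control arrays spanned 1.05-fold, the least of any member. With the values scaled by the authors it passed against both wild-type arrays, at 2.01-fold and 2.02-fold.

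Apoe, the main apolipoprotein of lipid export in nervous tissue and macrophages, had a level of 77.6 in WT DT-, 68.4 in WT DT+, 73.0 in OHC-TRECK DT- and 79.5 in OHC-TRECK DT+. OHC-TRECK DT+ exceeded the others by 1.09-fold, 1.16-fold and 1.02-fold, and the gap to the highest control array was smaller than the 1.13-fold span of the control arrays. Apoe is the member measured with most spots, 10 on each array with 9 used in OHC-TRECK DT+. Its log2 ratio to OHC-TRECK DT- was 0.12 with a standard error over spots of 0.05, which covers the array and not the animals.

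Apoc2, Apoc4, Apoc1 and Apoe follow each other on chromosome 7, with probes from chr7:20257027-20257086 (Apoc2) through chr7:20274831-20274890 (Apoc1) to chr7:20281732-20281791 (Apoe). Across the 24705 bases between the first and the last of these, the ratio of OHC-TRECK DT+ to OHC-TRECK DT- went from 6.27-fold at Apoc2 to 1.91-fold at Apoc1 and 1.09-fold at Apoe. On none of the arrays was the Apoc4 probe well above background. Next to the cluster, Clptm1 was at 1.10-fold and Tomm40 at 0.94-fold. Farther out the ratios were not all near 1, with Relb at 1.32-fold on the side of Apoc2 and, on the side of Apoe, Pvrl2 at 1.10-fold and 1.5-fold by its 2 probes and Bcam at 1.79-fold, 1.89-fold and 1.84-fold against OHC-TRECK DT-, WT DT+ and WT DT-. These were named after their values were seen.

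**Figure D2:**
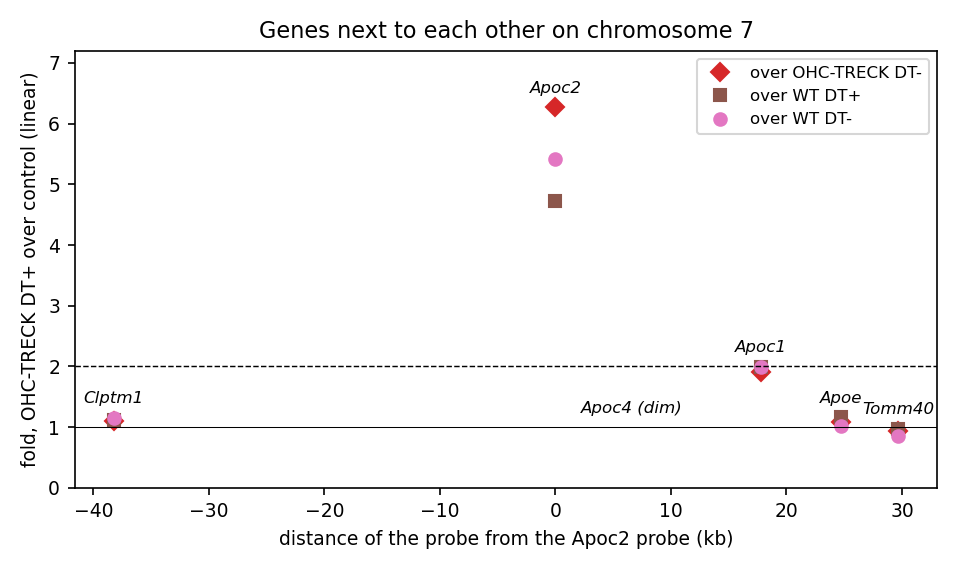
Fold of OHC-TRECK DT+ over each of the other 3 arrays (vertical axis, linear, dashed line at 2-fold) against the distance of each probe from the Apoc2 probe (horizontal axis, kb) for genes next to each other on chromosome 7. The 3 points of a gene are the 3 control arrays; Apoc2 is at 4.73-fold to 6.27-fold, Apoc1 at about 2-fold and Apoe, Clptm1 and Tomm40 close to 1, and Apoc4, not above background, is named without a point.

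Among the secreted and intracellular members, Spp1 encodes osteopontin, a secreted matrix protein and cytokine. Its level was 41.2 in WT DT-, 43.5 in WT DT+, 44.0 in OHC-TRECK DT- and 57.7 in OHC-TRECK DT+, or 1.31-fold to 1.40-fold above the control arrays, which spanned 1.07-fold. Osteoblast markers, which come with the bony shell of the cochlea, ran the other way, with a summed level of 41.8 to 59.5 on the control arrays and 28.0 in OHC-TRECK DT+, and osteoclast markers likewise had a sum of 4.81 to 7.49 against 4.24. Their part in the Spp1 and Gpnmb values was not tested.

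Lpl, the lipoprotein lipase for which Apoc2 is cofactor, was 1.25-fold above OHC-TRECK DT-, with a level of 0.302 in WT DT-, 0.355 in WT DT+, 0.336 in OHC-TRECK DT- and 0.420 in OHC-TRECK DT+. Its second, weaker probe gave 1.32-fold, 1.46-fold and 1.77-fold against OHC-TRECK DT-, WT DT+ and WT DT-, where the first gave 1.25-fold, 1.18-fold and 1.39-fold. Neither probe reached 2-fold. Most markers of adipocytes, a main source of Lpl, were not above background (Cfd, Cidec, Lep and Plin1 of 7).

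Fabp5, a cytosolic carrier of fatty acids, was the member that OHC-TRECK DT+ did not lead. Its level was 4.42 in WT DT-, 2.94 in WT DT+, 3.66 in OHC-TRECK DT- and 3.57 in OHC-TRECK DT+. The ratio of OHC-TRECK DT+ to OHC-TRECK DT- was 0.976, and the largest difference was between the wild-type arrays, where WT DT+ was 1.51-fold lower than WT DT-.

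Counted together, 5 of the 10 members rose in OHC-TRECK DT+ against OHC-TRECK DT- (Lgals3, Apoc2, Cd36, Trem2 and Gpnmb), where 2.71% of the 21454 genes measured rose and 1.42% fell. Against WT DT+, 3 members rose (Lgals3, Apoc2 and Trem2) on a background of 1.52%. Against WT DT-, 4 rose (Lgals3, Apoc2, Gpnmb and Cd36) on a background of 2.09%. Against each of the 3 other arrays at once, 2 members rose, Lgals3 and Apoc2, on a background of 1.07%. The rises of these 2 were known when the set was chosen, so all these counts were partly fixed in advance. The background falls to 1.37% against OHC-TRECK DT- and to 0.526% against all 3 arrays when only genes well above background on all 4 arrays are counted, as the members are.

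The median log2 ratio of the members was 0.98 against OHC-TRECK DT-, 0.74 against WT DT+ and 0.97 against WT DT-, beside 0.01, 0.01 and -0.03 over all genes measured. Without Lgals3 and Apoc2, the other 8 members had medians of 0.66, 0.55 and 0.72. Of them 3, 1 and 2 rose in the same comparisons, beside 2.71%, 1.52% and 2.09% of all genes measured. None of them rose against all 3 arrays, beside 1.07% of all genes. For 8 of the 10 members, the gap between OHC-TRECK DT+ and the highest control array was wider than the span of the control arrays; Apoe and Fabp5 were the exceptions. At 1.5-fold in place of 2-fold, 6 members stood above all 3 other arrays, the 5 named above and Apoc1, where 2.54% of all genes did.

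**Figure D3:**
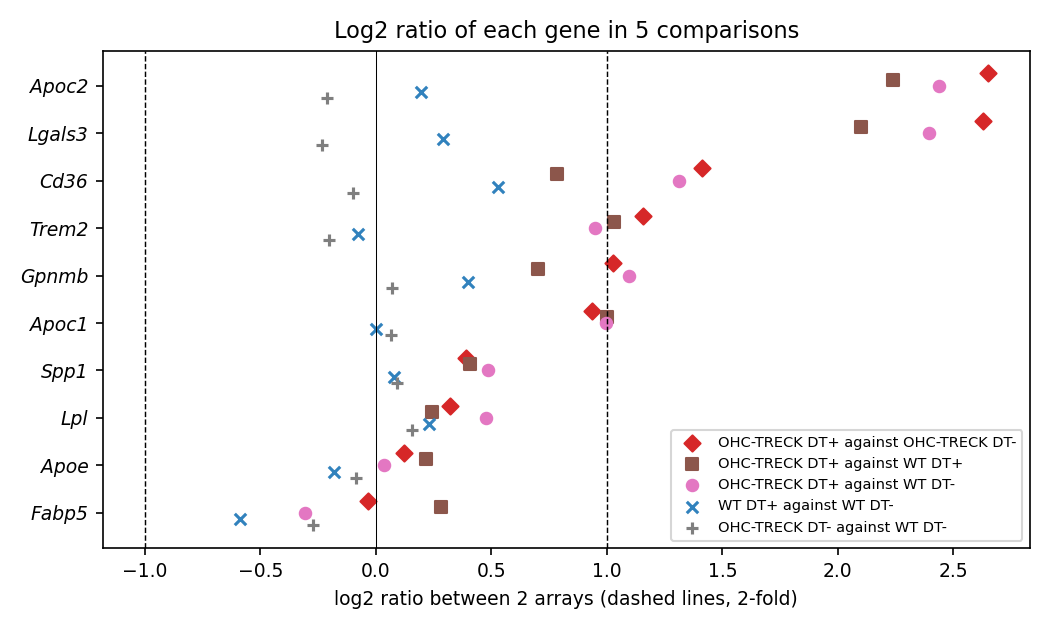
Log2 ratio between 2 arrays (horizontal axis, dashed lines at 2-fold) of the 10 genes in 5 comparisons, 1 symbol per comparison. Filled symbols (OHC-TRECK DT+ against the 3 other arrays) pass 2-fold in all 3 comparisons for Apoc2 and Lgals3 only, and the crosses and plus signs, which do not involve OHC-TRECK DT+, all lie between the dashed lines.

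The comparisons that leave out OHC-TRECK DT+ differ by the toxin or by the transgene, but also by pool, and these cannot be told apart. Blood cell markers differed in them. In WT DT+ against WT DT-, 5 of 8 erythroid markers rose and 0 fell. In OHC-TRECK DT- against WT DT-, 6 of 9 neutrophil markers fell and 0 rose. No member changed by 2-fold in WT DT+ against WT DT- or in OHC-TRECK DT- against WT DT-. Of 20504 genes measured in WT DT+ against WT DT-, 313 (1.53%) rose and 230 fell. Of 21655 measured in OHC-TRECK DT- against WT DT-, 218 (1.01%) rose and 527 fell. With so few genes changed, a set this small would often show no change. The median log2 ratios of the members were 0.14 and -0.09. In wild-type mice the toxin ratio was highest for Cd36, at 1.44-fold, then Gpnmb at 1.32-fold and Lgals3 at 1.22-fold, and it was lowest for Fabp5.

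The log2 ratio of DT+ to DT- was larger in OHC-TRECK than in WT for all 10 members, with a median difference of 0.76. The difference was 2.45 for Apoc2, 2.34 for Lgals3 and 1.23 for Trem2, and below 1 for the other 7, down to 0.09 for Lpl. For Trem2, Apoc1 and Apoe the toxin ratio was below 1 in WT (0.946, 0.999 and 0.882) and above 1 in OHC-TRECK (2.23, 1.91 and 1.09), but the wild-type log2 ratio of Apoe became 0.02 with quantile normalization and that of Apoc1 turned positive with each other scaling and with normexp. With 1 array per group, none of these differences could be tested.

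**Figure D4:**
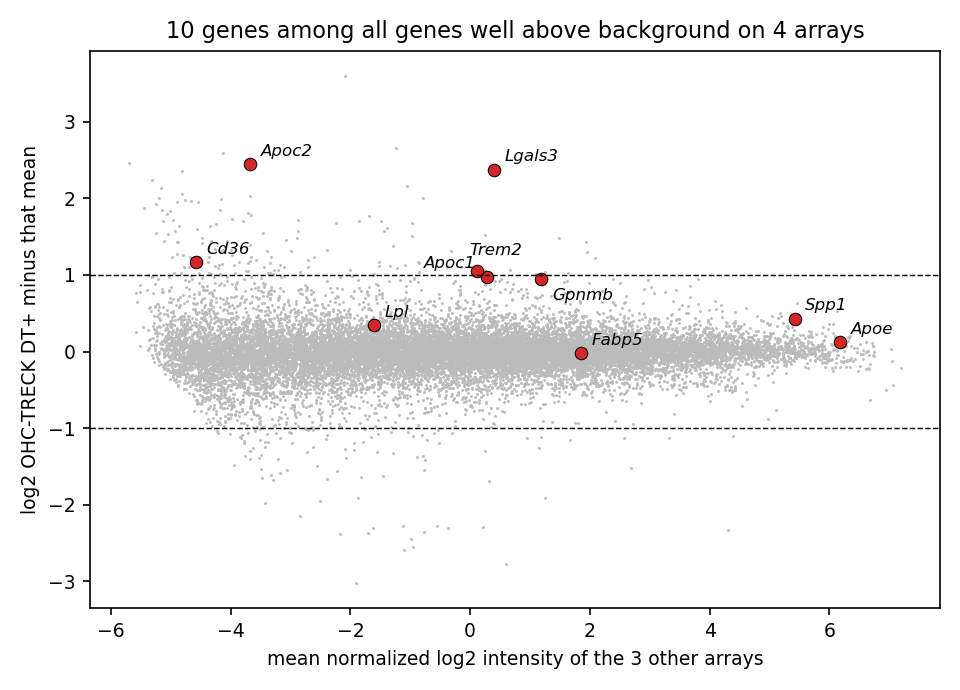
Log2 level in OHC-TRECK DT+ minus the mean log2 level of the 3 other arrays (vertical axis, dashed lines at 2-fold) against that mean (horizontal axis) for the 18248 genes well above background on all 4 arrays (grey), with the 10 genes in red. Apoc2 and Lgals3 are near the upper edge of all genes, Cd36, Trem2, Apoc1 and Gpnmb lie around the 2-fold line, and Spp1, Lpl, Apoe and Fabp5 are inside the grey band.

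Macrophage markers moved with the members. Of 15 listed, 14 were measured, Cd163 being not above background, and 13 were highest in OHC-TRECK DT+. Their summed level was 23.6 to 29.1 on the control arrays and 38.7 in OHC-TRECK DT+, and 7 rose against OHC-TRECK DT- (C1qb, C1qc, Cd68, Emr1, Mpeg1, Ptprc and Tyrobp) with a list median of 1.03. Against WT DT+ and WT DT- 4 rose in each comparison, with medians of 0.88 and 0.78. Their log2 ratios against OHC-TRECK DT- ran from -0.24 for Itgam to 1.68 for Mpeg1, which encodes a pore-forming protein of macrophages. Lgals3 and Apoc2 exceeded the highest macrophage marker in all 3 comparisons, by 6.18-fold and 6.27-fold against 3.21-fold for Mpeg1 in the first, whereas Trem2, Cd36, Gpnmb and Apoc1 lay inside the range of these markers. Spp1, Lpl, Apoe and Fabp5 lay below the median of these markers in every comparison, though no member lay below the lowest marker. The part of macrophage number in the members' values was not tested.

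Other blood cells did not follow the same order of arrays. Neutrophil markers had a summed level of 22.6 in OHC-TRECK DT+, between the 13.7 of OHC-TRECK DT- and the 59.2 of WT DT+, so their list median was 0.71 against OHC-TRECK DT- and -1.37 against WT DT+. Monocyte, platelet and erythroid markers turned likewise, from 0.98, 0.35 and 0.41 against OHC-TRECK DT- to -0.75, -1.38 and -1.14 against WT DT+. Of the 6 monocyte markers measured, 1 rose and 3 fell against WT DT+. The marker that rose was Ccr2, the receptor that brings monocytes to inflamed tissue. It rose against all 3 arrays (6.02-fold against OHC-TRECK DT-, 2.28-fold against WT DT+ and 3.42-fold against WT DT-). By qRT-PCR, the study found no significant rise of Ccr2 in the toxin-treated transgenic mice. Lgals3, Apoc2 and Trem2 rose against both OHC-TRECK DT- and WT DT+, while Cd36 and Gpnmb rose against the first alone of these.

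Markers of keratinocytes, of interest because keratinised epithelia make Lgals3, were also higher in OHC-TRECK DT+. Their summed level was 1.18 to 1.22 on the control arrays and 1.91 in OHC-TRECK DT+, 3 of the 8 measured rose against each of the other arrays, 6 were highest in OHC-TRECK DT+, and the list median was 0.69 against OHC-TRECK DT- and 0.53 against each wild-type array. Among those that rose, Cdsn, which encodes a desmosomal protein of cornified skin, was 6.22-fold higher than in OHC-TRECK DT-, and Ivl, a protein of the cornified envelope, 3.22-fold higher. Krt1, a defining marker, was not above background and Krt5 was at 0.952-fold. Fabp5, also made by these cells, did not rise. Endothelial and Schwann cell markers had list medians of 0.11 each with 0 members risen, and those of supporting cells 0.02. The part of any of these cells in the Lgals3 value was not tested.

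To look beyond the set, 8 lists of genes related to the members, 131 genes without repeats, were counted. The lists were written with earlier results of these data known. Against OHC-TRECK DT-, 14 of the 121 measured rose and 0 fell, and the median log2 ratio was 0.17. Against WT DT+ 6 of 118 rose and 3 fell, and against WT DT- 8 of 118 rose and 2 fell, with medians of 0.17 and 0.15. Against all 3 arrays 6 rose: Ccl3, Cd68, Lyz2, Ms4a7, Cd14 and Ms4a6d. Over all genes measured, 2.71%, 1.52% and 2.09% rose in the 3 comparisons, and 1.07% against all 3 arrays. Of the 121, 2 (Cd68 and Tyrobp) are also in the macrophage list, and without them 12 of 119 rose against OHC-TRECK DT-.

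The rises were mostly among genes listed with the same phagocyte programme, where 9 of 25 measured genes rose against OHC-TRECK DT- and the median was 0.44. Against WT DT+ 4 of the 25 rose and 1 (Fabp4) fell, and against WT DT- 5 rose, with medians of 0.39 and 0.35. Lyz2, lysozyme of myeloid cells, rose most, by 4.28-fold against OHC-TRECK DT-, 2.46-fold against WT DT+ and 3.09-fold against WT DT-. Cd68, a lysosomal glycoprotein of macrophages, rose by 2.76-fold, 2.32-fold and 2.39-fold, and Ms4a7, a membrane protein of macrophages, by 2.65-fold, 2.62-fold and 2.50-fold. The chemokine gene Ccl3, not above background in the wild-type arrays, was 3.91-fold higher than in OHC-TRECK DT- and at least 4.40-fold and at least 5.09-fold higher than in WT DT+ and WT DT-. The lowest ratio of this list was that of Ank, at 0.970-fold, and Cst7 and Mmp12 were not above background.

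The list of Trem2 signalling, which also holds the related receptors Trem1, Treml1 and Treml2, had the highest median of the related lists against OHC-TRECK DT-. The median was 0.47, with 3 of 11 genes risen. These were Tyrobp, the adaptor of Trem2 (2.27-fold), Ms4a4a (2.08-fold) and Ms4a6d, which rose against all 3 arrays by 2.69-fold, 2.24-fold and 2.57-fold. Trem1 was at 0.931-fold. Against WT DT+ the median of this list was 0.16 and against WT DT- 0.07, with 1 gene risen (Ms4a6d) and 1 fallen (Treml1) in each.

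Lysosomal genes had a median of 0.26, and 3 of 26 rose against OHC-TRECK DT-, 1 against WT DT+ and 2 against WT DT-. Besides Cd68 these were Laptm5 (2.25-fold), a lysosomal membrane protein of blood cells, and Ctss (2.13-fold), the cathepsin of antigen-presenting cells. Npc1, which moves cholesterol out of lysosomes, was at 0.953-fold.

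Receptors and bridging proteins of apoptotic cell uptake had a median of 0.04, and 1 of 23 rose, Cd14 (2.15-fold, 2.28-fold and 2.06-fold against OHC-TRECK DT-, WT DT+ and WT DT-). At the other end, Cd300lf was 1.57-fold, 2.14-fold and 2.47-fold lower. Genes of cholesterol efflux and its regulator LXR had a median of 0.05 with 0 of 13 risen. Abca1, the cholesterol exporter, had the highest ratio, at 1.65-fold, and Pltp the lowest, at 0.845-fold.

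Genes of fatty acid uptake and lipid droplets had a median of 0.14, and 0 of 21 rose. Fabp4 was 1.80-fold higher than in OHC-TRECK DT- but 2.45-fold lower than in WT DT+, and Dgat2, which makes triglyceride, was at 0.857-fold. The other galectins had a median of 0.23 with 0 of 7 risen, from Lgals4 at 0.764-fold to Lgals3bp, the galectin-3 binding protein counted with them, at 1.89-fold. The other apolipoproteins had a median of 0.09 with 0 of 9 risen, from Apod at 0.763-fold to Apoh at 1.53-fold. No measured galectin besides Lgals3 and no measured apolipoprotein besides Apoc2 rose in OHC-TRECK DT+ against OHC-TRECK DT-. As 2.71% of all genes rose there, lists this short would often show no rise.

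**Figure D5:**
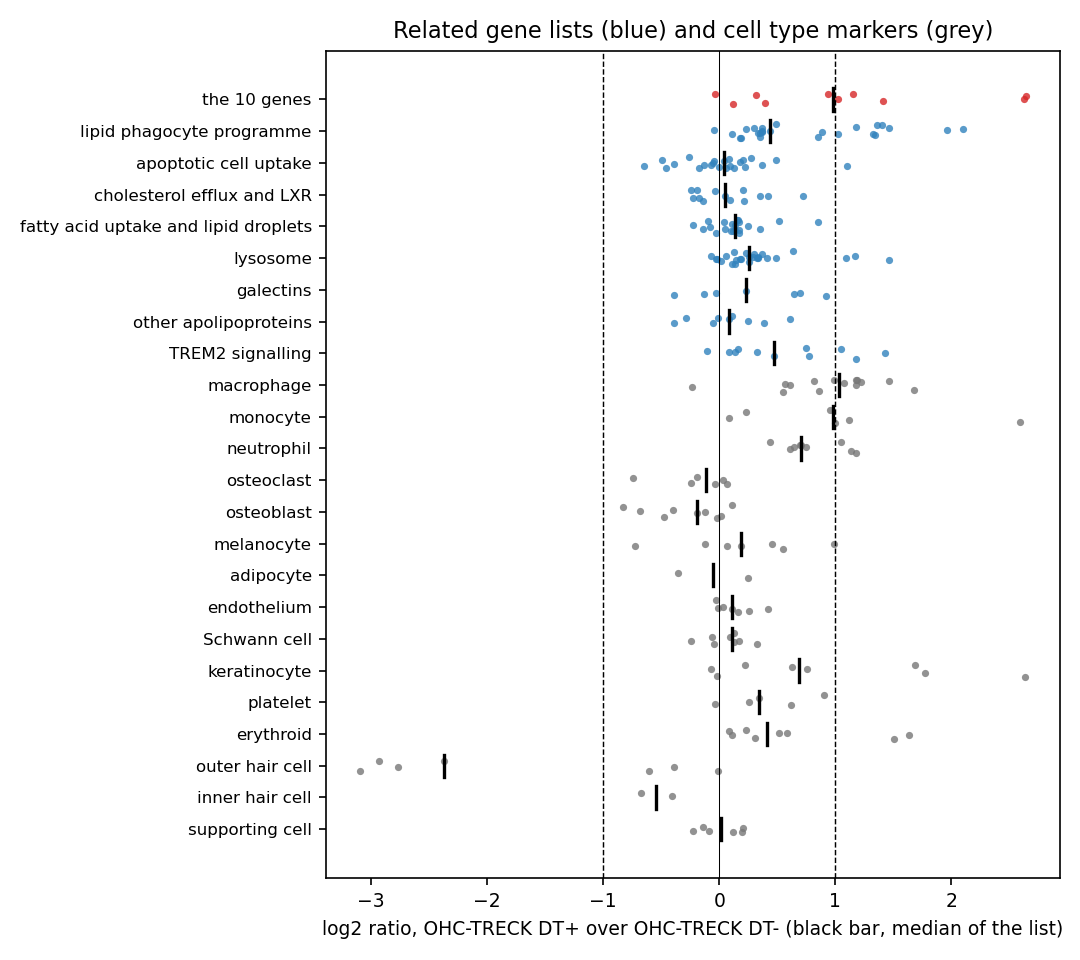
Log2 ratio of OHC-TRECK DT+ to OHC-TRECK DT- (horizontal axis, dashed lines at 2-fold) for the genes of each list, 1 point per gene, with the median of the list as a black bar. The 10 genes (red) have a median of 0.98, near the macrophage markers at 1.03, the related lists (blue) run from 0.04 to 0.47, and OHC markers are at -2.37.

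The sequence before the start of transcription is shown for the 5 members that rose against OHC-TRECK DT-. RefSeq promoter entries in GRCm38.p6, a later build than that of the probes, were matched by symbol for 7 of the 10 members. These include Apoe and Spp1, which did not rise and are not printed. Each line gives the 120 bases ahead of the start, 5′ to 3′ on the strand of the gene, and capitals mark matches to the motifs named after them.
Lgals3, chr14:47373740-47373859, plus strand: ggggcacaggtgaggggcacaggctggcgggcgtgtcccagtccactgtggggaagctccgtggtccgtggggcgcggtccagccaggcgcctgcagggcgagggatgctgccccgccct
Apoc2, chr7:19677942-19678061, minus strand: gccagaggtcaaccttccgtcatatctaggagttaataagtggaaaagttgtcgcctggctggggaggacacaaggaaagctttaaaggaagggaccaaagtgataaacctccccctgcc
Trem2, chr17:48346281-48346400, plus strand: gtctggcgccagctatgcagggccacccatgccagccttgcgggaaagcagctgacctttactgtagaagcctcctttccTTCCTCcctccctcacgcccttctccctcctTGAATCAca
Gpnmb, chr6:49036398-49036517, plus strand: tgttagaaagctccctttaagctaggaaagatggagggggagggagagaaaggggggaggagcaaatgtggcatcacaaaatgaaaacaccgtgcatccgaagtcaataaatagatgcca
Cd36, chr5:17835897-17836016, minus strand: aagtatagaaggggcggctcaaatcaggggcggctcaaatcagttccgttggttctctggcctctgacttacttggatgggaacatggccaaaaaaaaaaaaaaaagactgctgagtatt

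Over the 250 bases ahead of the start and on both strands, 6 motifs were searched: the TATA box (TATAAA), the CCAAT box (CCAAT), AP-1 (TGANTCA), the core of PU.1 sites (GAGGAA), the MITF M-box (TCATGTG) and the E-box (CACGTG) that lies inside lysosomal gene motifs. Trem2 held an AP-1 match 9 to 3 bases and a PU.1 core 40 to 35 bases ahead of the start, both in capitals above, where 6.75% and 23.3% of all 32851 promoters hold these. Trem2, Lgals3 and Cd36 each held a CCAAT box farther out, which 33.8% of promoters hold. Apoe and Spp1, which did not rise, also held matches. Spp1 had a PU.1 core, a TATA box (12.4% of promoters) and a CCAAT box in the same entry. The PU.1 core and the TATA box of Apoe lay in different entries. The 7 members had 10 entries in all, so a member with several could match in any of them, while the shares are per entry. Lgals3 and Apoc2, alike on the arrays, shared none of the 6: no motif was matched in the windows of Apoc2 and Gpnmb, and the M-box (3.25% of promoters) and the E-box (6.02%) were matched in none of the 7 members with an entry. The stretch printed for Lgals3 has 75% G and C and that of Apoc2 50.0%, with a median of 54.2% over all promoters. A match is a run of letters and not a bound site.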

How the data were processed

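Cochlear RNA was measured on single-colour (Cy3) Agilent mouse arrays, 1 per group and 4 in all. The authors scanned the slide at 5 μm and deposited the intensity of each spot from Feature Extraction 11.5.1.1 (version per the submitters' processing notes), background-subtracted by that software and not scaled between arrays. They also deposited a table of scaled signal, which holds the same values divided by 1 constant per array and served as an alternative only.

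Control spots and 149 to 228 outlier spots per array were left out, repeat spots were averaged, and intensities were divided by the array's 75th percentile over probes. A probe took a flag set in over 0.5 of its spots. A probe entered a comparison if well above background on 1 of the arrays compared. A signal that was not was raised to the lowest well-above-background signal of that array, or kept if higher, which makes the fold a lower bound. For each gene, the brightest probe by mean was used, out of those that passed the background flag on 1 array or more. No test was made, and 2-fold was the threshold. The 10 members were all named, genes of the 8 related lists were named if they rose by 2-fold against all 3 other arrays or had the highest or lowest ratio of their list, and 5 nearest profiles were given; other list genes were named after their values were seen. The members and all 8 related and 15 marker lists were chosen with earlier results of these data known. Of the keratinocyte markers, 1 gene is not reported here. Gene names are those of the array files, with 254 of 255 listed genes found. Probe positions are in mm9 as the array files give them; exons and UTRs were not analysed here. The number of arrays limits the precision.

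On simulated data with 39429 probes, where the steps were tested, 100 of 100 raised and 100 of 100 lowered ones were called, and 0 unchanged ones. The changes put in lay far beyond 2-fold, on bright probes with little noise. This checked that the steps run as meant and could not show how calls near 2-fold behave. Alternatives were another detection filter or none, no floor, normexp of limma 3.58.1 in R 4.3.3 with an offset of 50, median scaling, quantile normalization, the scaled table, the mean of probes, a threshold of 1.5-fold, and leaving out Lgals3 and Apoc2. Python 3.11.15, numpy 2.4.6, pandas 2.3.3 and matplotlib 3.10.9 were used.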

Additional observations from a re-analysis of the deposited data

Results flagged for a closer look

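For 3 members the toxin ratio was below 1 in wild-type and above 1 in OHC-TRECK cochleae, which is why they are listed here. The log2 ratio of DT+ to DT- in OHC-TRECK minus that in WT was 1.23 for Trem2, 0.94 for Apoc1 and 0.30 for Apoe. The wild-type ratios were close to 1 for Trem2 and Apoc1, at 0.946 and 0.999. With quantile normalization the wild-type log2 ratio of Apoe was 0.02 and its difference 0.10, and the sign for Apoc1 turned with each other scaling. The differences between genotypes were not tested, because each group has 1 array.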

How the results depend on the processing

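No member's 2-fold ratio changed sign under any alternative. Of 360 single log2 ratios and toxin differences recomputed, 341 moved by less than 0.10, the difference that spot noise gives between 2 arrays, and 19 by more: 9 under normexp (Cd36 and Apoc2), 7 under quantile normalization (Apoe and Spp1) and 3 with the mean of probes (Lpl). Many of the 341 could not move. Every member probe was well above background on every array, so leaving out the floor changed none, and the mean of probes could change only those of Lpl. Leaving out Lgals3 and Apoc2 left 3, 1 and 2 members risen in OHC-TRECK DT+ against OHC-TRECK DT-, WT DT+ and WT DT-, and 0 against all 3, with a median log2 ratio to the mean of the other arrays of 0.68 in place of 0.96 and a median difference between the toxin ratios of 0.59 in place of 0.76. At 1.5-fold, 6 members passed against WT DT+ and 6 against all 3 arrays, and 1 (Fabp5, lower) in WT DT+ against WT DT-. Under normexp the median difference between the toxin ratios was 0.63. Cd36 and Gpnmb, the members on either side of that median, had differences of 0.65 and 0.60 there, in place of 0.88 and 0.63. The scaling and the choice of probe moved no count of members by over 1.5 times, though median scaling added Trem2 to the members above all 3 arrays, making 3. The detection filter and the floor could not move these counts. Over all genes, without a detection filter the median log2 ratio was 0.12 against OHC-TRECK DT-. Of the genes near 2-fold, Trem2, Apoc1 and Cd36 change side with the scaling or background in at least 1 comparison, and arrays of separate pools would be needed to give their error. No paired analysis was possible because each group has 1 array and the labels carry no replicate numbers.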
